A study of Mus musculus with 30 samples.

Results

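Mouse embryonic stem cells (mESCs) that had spent 24 h in the galactose medium EMM were compared here with mESCs that had spent 9 h in it, the last step of a 24 h time course. The comparison rested on 6 of the 30 RNA-seq libraries of the series, 3 at 9 h and 3 at 24 h, chosen by the time point in their labels. All 6 came from E14tg2a, a mouse ESC line, grown in serum with LIF, the cytokine that holds mESCs in self-renewal. EMM is that same Serum/LIF medium with D-galactose in place of D-glucose and pyruvate. The 2 groups thus shared serum, LIF, line and carbon source and differed in the time spent in EMM, 9 h or 24 h. Cells in Serum/LIF, labelled 0 h, and at 3 h of EMM gave the earlier points of the same course, and cells kept for 10 or 20 passages in Serum/LIF (SL) or EMM gave 12 libraries of another experiment, whose other 6 libraries, from mESCs labelled 2iL, entered only the shared estimate of the spread. The Serum/LIF libraries carry 0 h as their time, while a protocol text speaks of 24 h in Serum/LIF, and no glucose medium was sampled at 9 h, so time in EMM and time since the change of medium cannot be told apart. The course was made in 1 cell line, and the p-values measure only the spread between these libraries.

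Cells grown on galactose take it through the Leloir pathway to glucose phosphates more slowly than they take up glucose, so less carbon passes through glycolysis and more ATP has to come from respiration in mitochondria. Several gene programmes read this state of the cell. Hypoxia-inducible factors (HIFs) drive glycolytic genes and are held down by the EGLN oxygen sensors, which they induce in turn. The unfolded protein response raises the glucose-regulated chaperones of the endoplasmic reticulum (ER), which were named after their rise in cells starved of glucose, and ATF4 drives the integrated stress response. mESCs in serum are a mixture of naive cells, cells closer to the primed epiblast and a few cells turning towards primitive endoderm, the extraembryonic lineage beside the epiblast in the blastocyst.

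The data were whole-number counts per gene. Totals were 32501341, 31443876 and 28284399 at 9 h and 30321067, 28158762 and 28344289 at 24 h, within the 24074132 to 35301962 of the whole course. The 8 markers of mESCs checked (Pou5f1, Sox2, Nanog, Zfp42, Esrrb, Dppa5a, Utf1 and Tdgf1) lay between 8789 and 36492 normalized counts in every library at 9 h and 24 h, where a normalized count is a count scaled to the mean library size. In the same 6 libraries the summed normalized counts of 11 fibroblast markers were 3077 to 3276 at 9 h and 2653 to 3056 at 24 h, and none of 12 genes of the 2-cell state passed the filter on low counts. The libraries did not split by time alone. The share of protein-coding counts on transcripts shorter than 800 bases was 0.692%, 0.686% and 0.834% at 9 h and 0.723%, 0.883% and 0.869% at 24 h. By this share 9 h replicate 3 lay with 24 h replicates 2 and 3, and 24 h replicate 1 with 9 h replicates 1 and 2. On the first principal component of the 6 libraries, with 44.7% of the variance, the 9 h libraries ran from −12.8 to −1.59 and the 24 h libraries from −0.95 to 13.2, with 9 h replicate 3 and 24 h replicate 1 next to each other. Because each side of the split held libraries of both times, 24 h minus 9 h was also taken within each side. The 33 rises and 59 falls called below had libraries that did not overlap between the times, which fixes their sign on both sides, so that sign is no check of the calls. With the side as a term in a fit of the 6 libraries, 30 of the 33 rises and 51 of the 56 falls tested there were still called. With the short-transcript share as a covariate over the 12 libraries, 24 of the 33 rises and 46 of the 59 falls were.

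**Figure D1:**
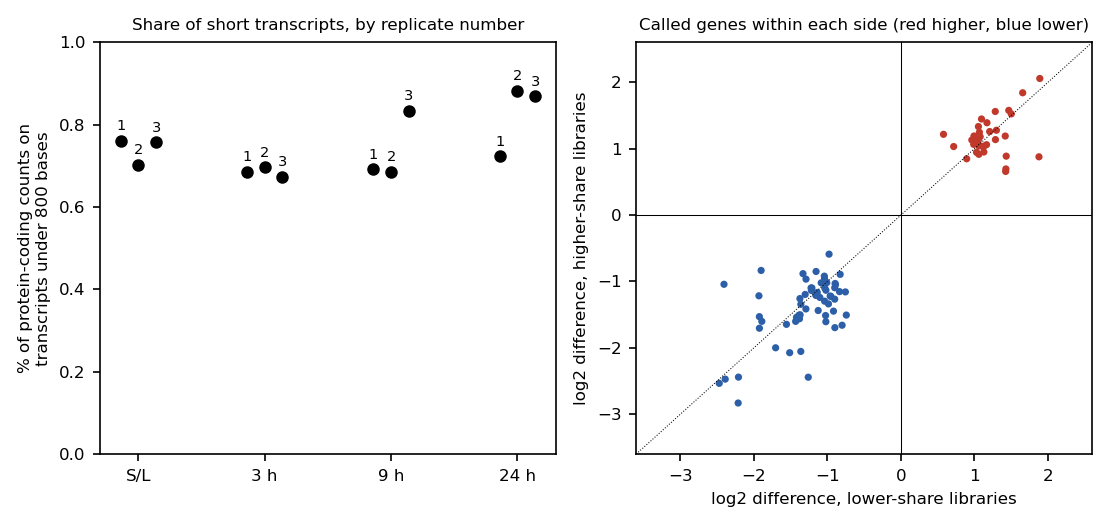
Left, share of protein-coding counts (%) on transcripts under 800 bases in each library of the time course, by time and labelled with its replicate number. Right, log2 difference of 24 h minus 9 h for the 92 called genes in the libraries with the lower share (horizontal) and with the higher share (vertical), dotted line for equal values, showing the size of the difference on each side for the 33 higher genes (red) and the 59 lower genes (blue), whose sign is fixed because their libraries do not overlap between the times.

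Between 9 h and 24 h of EMM, 33 genes rose and 59 fell, with a threshold of log2 fold change over 1 in size and an adjusted p under 0.01 (edgeR's quasi-likelihood test, Benjamini-Hochberg). These are 0.206% and 0.368% of the 16049 genes tested. By the adjusted p alone, without the fold threshold, 1124 genes rose (7.0%) and 966 fell (6.02%). Most differences were smaller than 2-fold, and the median log2 fold change over all genes was 0.003. Without 24 h replicate 3 the 966 lower genes became 594, and without 9 h replicate 2 they became 604. Of the called genes, 28 of the 33 higher and 58 of the 59 lower were protein-coding, and 5 and 11 overlap another tested gene. Of the 33 higher genes, 32 had their highest mean of the whole course at 24 h. Of the 59 lower genes, 27 had it in Serum/LIF, 14 at 3 h and 18 at 9 h, and 52 were lowest at 24 h.

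**Figure D2:**
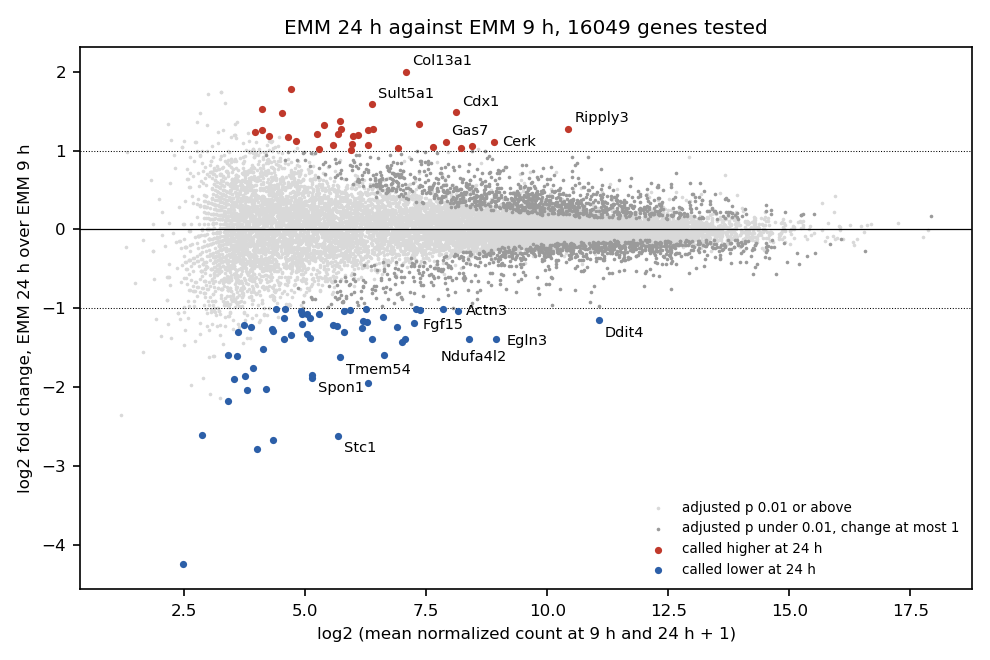
Log2 fold change of EMM 24 h over 9 h (vertical) against the log2 of the mean normalized count at both times plus 1 (horizontal) for the 16049 genes tested, with 33 called higher (red), 59 called lower (blue), and the smaller changes past the adjusted p in dark grey. Falls reach further than rises, and Ripply3 and Ddit4 are the most abundant called genes in each direction.

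The largest falls included genes that HIFs induce. Members of the gene lists are counted by the adjusted p alone, by which 7.0% of all genes rose and 6.02% fell. Of 18 tested hypoxia targets 10 fell (55.6%) and 2 rose (11.1%), and their median log2 fold change was −0.27 (8 to 10 fell when each library was left out in turn). Egln3, an oxygen sensor that marks HIF for destruction, had normalized counts of 525, 812 and 794 at 9 h and 251, 299.6 and 260.0 at 24 h (log2 fold change −1.39 ± 0.17 (SE), adjusted p = 5.65e-05). All 3 libraries at 24 h lay below all 3 at 9 h, and 9 h replicate 1 was the lowest of the 9 h libraries. Egln1, the broadly expressed sensor of the same family, fell too (log2 fold change −0.98, adjusted p = 9.20e-06). The gene for adrenomedullin, Adm, a secreted peptide that widens blood vessels, had normalized counts of 23.6, 32.2 and 28 at 9 h and 5.80, 6.28 and 8.22 at 24 h (log2 fold change −2.03 ± 0.33 (SE), adjusted p = 5.10e-04), a fall from an already low level. Bnip3, which targets mitochondria for autophagy, had 1196, 1550.5 and 1595 at 9 h and 729.8, 820.1 and 691 at 24 h (log2 fold change −0.95 ± 0.11 (SE), adjusted p = 2.70e-05). Ankrd37, a small ankyrin-repeat protein, had 72.7, 82.5 and 86.0 at 9 h and 42.5, 33.5 and 42.1 at 24 h (log2 fold change −1.02 ± 0.16 (SE), adjusted p = 3.23e-04). The groups did not overlap in either gene. Ndufa4l2, a mitochondrial protein induced by HIF and no member of the list, had 395, 479.6 and 576 at 9 h and 161, 189 and 206 at 24 h (log2 fold change −1.38 ± 0.12 (SE), adjusted p = 3.13e-06). At 9 h it stood above its level in Serum/LIF (239.8, 271 and 233). Stc1, which encodes the secreted glycoprotein stanniocalcin and is another known HIF target, showed the largest fall among called genes with a mean of at least 50 normalized counts at one time, with normalized counts of 64.5, 96.7 and 96.4 at 9 h and 15.5, 7.33 and 18.5 at 24 h (log2 fold change −2.62 ± 0.27 (SE), adjusted p = 1.20e-05). Of these genes Ndufa4l2 overlaps Shmt2 and Ankrd37 overlaps Ufsp2, and without knowing whether the counting used strand, reads of overlapping genes cannot be told apart.

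Members moved against the others in 2 cases. Epas1, which encodes HIF-2α, rose (log2 fold change 0.42, adjusted p = 1.23e-05). Car9, a surface carbonic anhydrase, had normalized counts of 7.27, 15.2 and 10.4 at 9 h and 24.2, 20.9 and 29.8 at 24 h (log2 fold change 1.19 ± 0.30 (SE), adjusted p = 0.00944), few counts throughout. When any library other than 9 h replicate 2 was left out, its adjusted p was between 0.0141 and 0.0531. Hif1a itself did not pass the test (log2 fold change −0.08, adjusted p = 0.181), nor did Vegfa (log2 fold change −0.07, adjusted p = 0.602). The 9 h libraries were the high point of this group: relative to the 9 h mean, the median member lay at −0.29, −0.25 and −0.25 in the 3 Serum/LIF libraries, −0.37, −0.49 and −0.40 at 3 h, −0.16, 0.05 and 0.03 at 9 h and −0.28, −0.23 and −0.29 at 24 h on the log2 scale. The 24 h values overlapped those of Serum/LIF.

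The core of the hypoxia response element, ACGTG, was searched for on both strands of the RefSeq promoter windows of GRCm38.p6, which run from 250 bases before to 50 bases after each gene's start. It stood in 11 of 18 promoters of the 14 hypoxia targets found in that table (61.1%) and in 6447 of all 32851 promoters (19.6%). The stretches that hold it in a pair of genes that fell are shown up to the gene's start, 5′ to 3′ on the gene's strand, with the match in capitals, for Bnip3 at chr7:138909507-138909626 on the minus strand and for Ankrd37 at chr8:45999851-46000096 on the minus strand. In Bnip3 the letters CACGTG hold the core on both strands, 1 match each, and in Ankrd37 the 2 matches lie at both ends of the stretch. A match is a description of letters and says nothing of whether HIF binds there. The list gathers genes known as hypoxia targets, so a high share may come from that choice. The count does not use the change between 9 h and 24 h.
Bnip3: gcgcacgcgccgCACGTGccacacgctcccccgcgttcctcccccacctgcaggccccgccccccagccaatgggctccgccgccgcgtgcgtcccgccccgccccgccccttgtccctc
Ankrd37: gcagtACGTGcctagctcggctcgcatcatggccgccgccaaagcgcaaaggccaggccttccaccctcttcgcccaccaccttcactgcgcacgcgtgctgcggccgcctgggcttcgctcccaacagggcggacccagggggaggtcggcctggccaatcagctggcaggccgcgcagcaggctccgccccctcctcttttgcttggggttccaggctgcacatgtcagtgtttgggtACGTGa

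Glucose transport and glycolysis went the same way as the hypoxia targets, with which it shares Slc2a1. Of 23 members 13 fell (56.5%, against 6.02% of all genes) and 0 rose (median −0.22), and 9 to 15 fell with each library left out, fewest without 9 h replicate 2. The summed normalized count of the list was 445146 to 484940 in Serum/LIF, 467890 to 484279 at 3 h, 509558 to 545669 at 9 h and 433981 to 470836 at 24 h. The 24 h sums thus overlapped those of Serum/LIF. Slc16a3, the monocarboxylate transporter that exports lactate, had normalized counts of 7268, 8384 and 7045 at 9 h and 4989, 3983 and 4451 at 24 h (log2 fold change −0.76 ± 0.10 (SE), adjusted p = 7.51e-05). Ldha, which turns pyruvate into lactate, had 41623, 45198 and 42852 at 9 h and 33779, 31189 and 30538 at 24 h (log2 fold change −0.44 ± 0.05 (SE), adjusted p = 1.62e-05). In both genes the 24 h libraries lay below all 9 h libraries. Pfkfb3, which makes the activator of phosphofructokinase, fell as well (log2 fold change −0.71, adjusted p = 1.68e-05), as did the glucose transporter Slc2a1 (−0.34), hexokinase 2, Hk2 (−0.24), and the pyruvate kinase gene Pkm (−0.27). Of the 7 enzymes of galactose use, Pgm2 rose (0.36) and Pgm1 and Galk1 fell (−0.36 and −0.20), but both falls missed the threshold without 9 h replicate 2, 9 h replicate 3 or 24 h replicate 2, and 1 of them did without 24 h replicate 1 (Galk1) or 24 h replicate 3 (Pgm1). The 7 genes of the pentose phosphate pathway gave 0 calls.

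The glucose-regulated ER chaperones had the largest share of called members among the lists. Of 18 members, all of them tested, 15 fell (83.3%) and 0 rose (median −0.32; 12 to 15 fell with each library left out). The median fall was −0.33 and −0.27 within the sides of the library split, and the replicates lay close together. Hspa5, the chaperone BiP that controls the sensors of the unfolded protein response, had normalized counts of 23992, 24044 and 22111 at 9 h and 16759.5, 15297 and 15284 at 24 h (log2 fold change −0.57 ± 0.05 (SE), adjusted p = 1.60e-06). Calr, the calcium-binding lectin chaperone calreticulin, had 32559, 31623 and 32884 at 9 h and 21298, 22259.9 and 21917 at 24 h (log2 fold change −0.57 ± 0.03 (SE), adjusted p = 5.85e-08). Hsp90b1, the ER form of HSP90, had 22976, 23319 and 24135 at 9 h and 16570.1, 17291 and 16669 at 24 h (log2 fold change −0.48 ± 0.04 (SE), adjusted p = 8.97e-07). In these 3 abundant genes every 24 h library lay below every 9 h library. Herpud1, which serves the removal of misfolded ER proteins, fell most (634, 651 and 649.9 at 9 h and 400.2, 402 and 394 at 24 h, log2 fold change −0.69 ± 0.05 (SE), adjusted p = 1.12e-06). Manf, a secreted ER factor, had a log2 fold change of −0.48, and the disulphide isomerases Pdia6 and Pdia4 had −0.46 and −0.43. The members that missed the threshold were Sdf2l1 (log2 fold change −0.33, adjusted p = 0.0577), Xbp1 (log2 fold change −0.19, adjusted p = 0.0184) and Sel1l (log2 fold change −0.14, adjusted p = 0.0188).

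Over the course the chaperones stood high at 3 h and 9 h and low at both ends. Against the 9 h mean, the median member was at −0.34, −0.29 and −0.29 in Serum/LIF, 0.05, 0.04 and 0.02 at 3 h and −0.25, −0.35 and −0.30 at 24 h (log2 ratio in each library). Hspa5 showed this in single values, with 16306, 16667 and 15268 normalized counts in Serum/LIF and 27391, 26849.9 and 26466 at 3 h. Its 24 h counts lay near those of Serum/LIF and below those at 3 h.

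**Figure D3:**
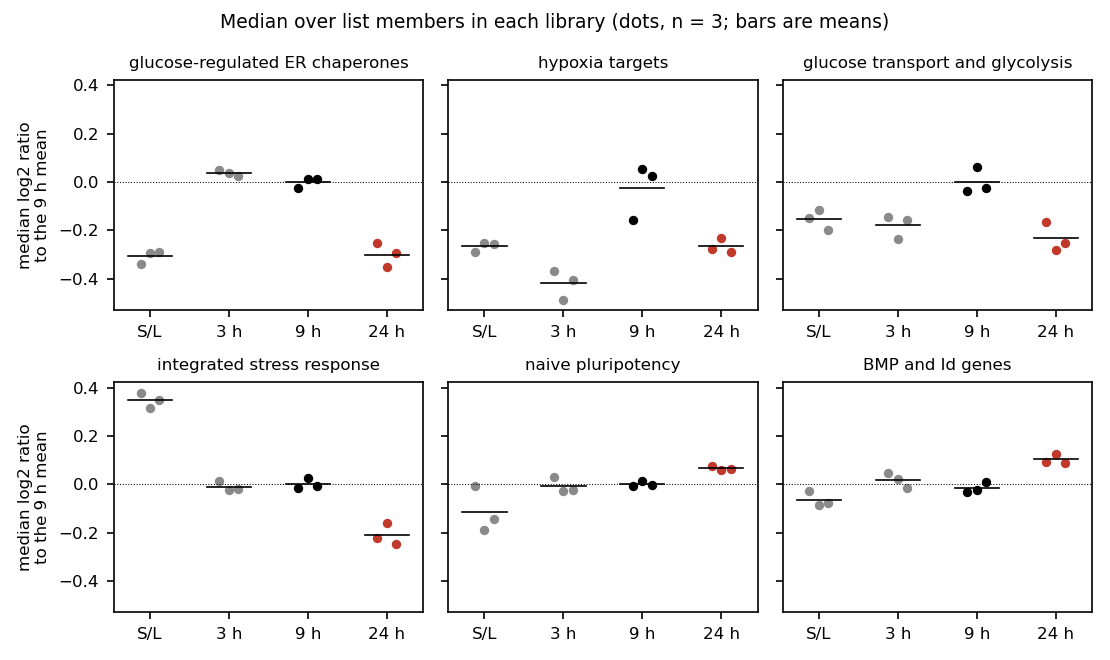
Median over the members of 6 gene lists of the log2 ratio to the 9 h mean (vertical) in each library of the time course (dots, n = 3 per time, bars are means), for Serum/LIF (S/L) and 3, 9 and 24 h of EMM. ER chaperones, hypoxia targets and glycolysis are lower at 24 h than at 9 h, the integrated stress response is highest in Serum/LIF and lowest at 24 h, and the naive and BMP lists differ least between 9 h and 24 h.

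The ER stress element, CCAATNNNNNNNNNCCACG, was found on either strand in 7 of 16 chaperone promoters (43.8%), those of Calr, Canx, Creld2, Dnajc3, Hsp90b1, Hspa5 and Pdia6, against 39 of 32851 promoters (0.119%) in the same windows. The other 2 members had no promoter in the table. As with the hypoxia list, the choice of known genes may give a high share by itself. The count does not use the change between 9 h and 24 h. The stretches below carry the element in the 3 chaperones described above, each up to the gene's start on its own strand of GRCm38.p6, with the element in capitals: Hspa5 at chr2:34771970-34772089 on the plus strand, Hsp90b1 at chr10:86705445-86705661 on the minus strand and Calr at chr8:84846932-84847098 on the minus strand. Hsp90b1 carries it 2 times, once on each strand, and in Calr it reads on the opposite strand. Its last base lies 47 bases before the start in Hspa5.
Hspa5: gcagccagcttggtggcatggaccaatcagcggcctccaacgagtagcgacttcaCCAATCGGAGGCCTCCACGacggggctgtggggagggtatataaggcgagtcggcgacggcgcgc
Hsp90b1: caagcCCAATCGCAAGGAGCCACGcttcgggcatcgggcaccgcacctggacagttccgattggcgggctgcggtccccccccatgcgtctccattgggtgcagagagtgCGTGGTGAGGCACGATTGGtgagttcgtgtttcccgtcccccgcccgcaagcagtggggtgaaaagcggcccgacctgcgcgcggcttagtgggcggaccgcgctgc
Calr: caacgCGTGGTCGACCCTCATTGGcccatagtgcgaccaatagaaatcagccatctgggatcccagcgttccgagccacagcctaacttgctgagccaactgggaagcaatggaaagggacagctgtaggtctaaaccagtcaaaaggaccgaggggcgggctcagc

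Genes of the integrated stress response also fell, 7 of 18 tested, with 1 rise (median −0.19; 6 to 7 fell with each library left out). Ddit4 (REDD1), an inhibitor of the growth kinase mTORC1, was the most abundant called gene among the falls and had normalized counts of 2711, 3385 and 2713 at 9 h and 1493, 1146 and 1334 at 24 h (log2 fold change −1.15 ± 0.13 (SE), adjusted p = 3.00e-05). The times did not overlap, and 9 h replicate 2 was the highest library. Chac1, which breaks down glutathione, had 319.7, 393 and 342 at 9 h and 184, 172 and 173 at 24 h (log2 fold change −0.997 ± 0.09 (SE), adjusted p = 3.31e-06). Trib3, a pseudokinase that restrains ATF4, fell (log2 fold change −0.60, adjusted p = 1.40e-05), as did the lipoprotein receptor gene Vldlr (−0.66), the alanine transaminase gene Gpt2 (−0.34), Atf4 itself (−0.26) and the amino acid transporter subunit Slc3a2 (−0.21). Atf5 had a log2 fold change of 0.37 (adjusted p = 0.00928), which missed the threshold when any library other than 24 h replicate 2 was left out. Unlike the chaperones, this group was highest before EMM: the median member was at 0.38, 0.31 and 0.35 in Serum/LIF and −0.22, −0.16 and −0.25 at 24 h against the 9 h mean.

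The ATF4 motif TGATGNAA stood in 7 of 21 promoters of these genes (33.3%), those of Asns, Atf3, Chac1, Nupr1, Slc7a11, Trib3 and Vldlr, and in 1304 of 32851 promoters (3.97%). This count too rests on a list of known genes and does not use the change between 9 h and 24 h. The stretch of the Chac1 promoter at chr2:119351044-119351241 on the plus strand of GRCm38.p6 is shown up to the start, with the match in capitals as it reads on the gene's strand (the reverse complement of the motif).
Chac1: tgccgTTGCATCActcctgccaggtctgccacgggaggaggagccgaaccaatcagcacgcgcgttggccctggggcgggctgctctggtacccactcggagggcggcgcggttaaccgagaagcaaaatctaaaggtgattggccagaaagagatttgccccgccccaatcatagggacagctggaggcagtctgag

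Serine and one-carbon genes, several of which ATF4 drives, gave 7 falls and 1 rise among 17 (median −0.19; 5 to 7 falls with each library left out). Mthfd2, the mitochondrial folate enzyme, had normalized counts of 3526, 3773 and 3494 at 9 h and 2539, 2568 and 2422 at 24 h (log2 fold change −0.52 ± 0.04 (SE), adjusted p = 2.22e-06), with no overlap between the times. Psat1, of serine synthesis, fell (log2 fold change −0.44, adjusted p = 3.94e-06). Tdh, threonine dehydrogenase, on which mESCs depend for glycine, rose slightly (log2 fold change 0.20, adjusted p = 4.44e-04). Cholesterol synthesis gave 9 falls and 2 rises among 23 (median −0.16), and 6 falls without 9 h replicate 1, 9 h replicate 2 or 24 h replicate 3. The sterol regulatory element, searched like the other motifs, stood in 0 of 18 promoters of the list and in 77 of 32851 promoters (0.234%). Among the falls was Dhcr7, an enzyme of the last steps of the pathway (log2 fold change −0.38, adjusted p = 3.71e-05), while Ebp rose (log2 fold change 0.29, adjusted p = 0.00697), a call kept in 1 of the 6 fits that left out a library, the one without 9 h replicate 2.

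Genes of the respiratory chain moved little. Of 50 nuclear genes of the respiratory chain 0 rose and 2 fell (Cycs, −0.25, and Atp5b, −0.13; 0 fell without 9 h replicate 2, 24 h replicate 2 or 24 h replicate 3, and 2 rose and 4 fell with the split as a term), and of 7 tested genes of the mitochondrial genome 0 changed (2 rose with the split or the covariate). Fatty acid oxidation gave 4 rises (19%) and 0 falls among 21 (median 0.09), the same count with each library left out. Acaa2, the thiolase of the last step, had normalized counts of 691, 699 and 649 at 9 h and 997, 897 and 884 at 24 h (log2 fold change 0.45 ± 0.06 (SE), adjusted p = 1.02e-04). The other rises were the carnitine carrier Slc25a20 (0.40), and the dehydrogenases Acads (0.37) and Acadm (0.27). Cpt1a, which admits fatty acids to the mitochondrion, did not pass (log2 fold change −0.07, adjusted p = 0.283). In the TCA cycle and glutamine list 3 of 27 rose and 3 fell, 11.1% each way and near the shares of all genes. With the split as a term, when 1672 genes rose in all instead of 1124, 6 members rose, and 6 did with the short-transcript covariate. Idh2, the mitochondrial NADP-dependent isocitrate dehydrogenase, rose most, with normalized counts of 4986, 5050.5 and 4692 at 9 h and 8130.4, 7923 and 8057 at 24 h (log2 fold change 0.71 ± 0.04 (SE), adjusted p = 2.42e-08) and no overlap. Malic enzyme 2, Me2, fell most (log2 fold change −0.39, adjusted p = 7.02e-06).

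Among the growth and cell cycle lists, falls were found mainly in ribosome biogenesis, DNA replication and, beside rises, the G1 regulators. Ribosome biogenesis gave 8 falls and 0 rises among 28 (28.6% lower, against 6.02% of all genes; median −0.13), led by Rrp12, an export factor of ribosomal subunits (log2 fold change −0.30, adjusted p = 0.0011). All 28 members had a negative log2 fold change. The falls numbered 4 without 9 h replicate 1, 12 with the short-transcript share as a covariate and 16 with the library split as a term, a setting in which 1439 genes fell in all instead of 966. Of 49 cytosolic ribosomal proteins 3 rose and 0 fell (1 to 5 rose with each library left out, 1 without 24 h replicate 2, and 7 rose and 2 fell with the split as a term). DNA replication gave 7 falls (25%) and 0 rises among 28, led by the clamp loader gene Rfc4 (log2 fold change −0.30, adjusted p = 1.58e-04), and 4 falls without 9 h replicate 1 or 24 h replicate 3. The 28 genes of mitosis gave 0 calls, and 2 falls with the split as a term. Mycn fell (4379, 4268 and 4356 at 9 h and 3093, 2996 and 2898 at 24 h, log2 fold change −0.53 ± 0.04 (SE), adjusted p = 4.35e-07). Myc did not pass (log2 fold change 0.04, adjusted p = 0.578). Among 19 G1 regulators 5 rose (26.3%) and 4 fell (21.1%), and 3 rose with the short-transcript covariate or without 9 h replicate 1, 9 h replicate 2, 24 h replicate 2 or 24 h replicate 3. The largest rise was that of Cdkn2c, a CDK inhibitor (log2 fold change 0.61, adjusted p = 0.00988), a call kept in 1 of the 6 fits that left out a library, the one without 24 h replicate 1. Cdkn1c, an imprinted CDK inhibitor, fell (1293, 1327 and 1288 at 9 h and 801, 829.5 and 790.4 at 24 h, log2 fold change −0.69 ± 0.04 (SE), adjusted p = 1.60e-07). Clustered histones, whose short transcripts follow the split of the libraries, gave 0 calls among 15 and a median of 0.27 that was −0.22 and 0.00 within the sides of the split.

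Pluripotency genes stayed at high levels. Pou5f1 had normalized counts of 28298, 28574 and 28302 at 9 h and 30889, 29802 and 30214 at 24 h and did not pass the test (log2 fold change 0.09, adjusted p = 0.0337). Sox2 did not pass either (log2 fold change 0.09, adjusted p = 0.0463), nor did Esrrb (log2 fold change 0.08, adjusted p = 0.0797). Nanog rose slightly, with 11854, 11736 and 12076 at 9 h and 13349, 13967 and 12991 at 24 h (log2 fold change 0.18 ± 0.04 (SE), adjusted p = 0.00313). Its adjusted p was 0.0149 without 9 h replicate 1, 0.016 without 9 h replicate 2 and 0.0204 without 24 h replicate 2. Of 20 naive markers 6 rose and 2 fell (median 0.06), and 6 rose with each library left out. Tbx3, a repressor tied to naive cells and to primitive endoderm, had 5107, 5164 and 4535 at 9 h and 7447, 6748 and 7279 at 24 h (log2 fold change 0.54 ± 0.06 (SE), adjusted p = 2.03e-05). The other rises were Tcl1 (0.40), Manba (0.31), Klf5 (0.30), Gbx2 (0.29) and Tfcp2l1 (0.26). Dppa3, a maternal factor expressed in the most naive cells, fell against the others, from 189.8, 206 and 226 to 126, 135 and 118 (log2 fold change −0.71 ± 0.09 (SE), adjusted p = 4.81e-05), as did Pecam1 (−0.18), a call lost when any library other than 24 h replicate 1 was left out. Klf4 did not pass (log2 fold change 0.05, adjusted p = 0.46).

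In the formative and primed epiblast list 8 of 23 fell and 3 rose (median −0.09), and 5 fell without 24 h replicate 2 or 24 h replicate 3. Fgf15, a secreted FGF of the primed epiblast, had normalized counts of 184, 207 and 237 at 9 h and 102, 79.6 and 92.5 at 24 h (log2 fold change −1.19 ± 0.12 (SE), adjusted p = 8.83e-06). Its mean fell at each step of the course, from 440.0 in Serum/LIF through 297 at 3 h and 209 at 9 h to 91.5 at 24 h. T (brachyury), which marks cells entering the primitive streak, had 447, 492 and 477 at 9 h and 292, 266 and 257 at 24 h (log2 fold change −0.79 ± 0.08 (SE), adjusted p = 5.61e-06). The transcription factors Zic2 (log2 fold change −0.97, adjusted p = 1.23e-05) and Otx2 (log2 fold change −0.57, adjusted p = 2.54e-04) fell, and so did Zic5 and Sox3. Lef1 fell by the test (log2 fold change −0.79, adjusted p = 0.00772) but its adjusted p reached 0.0458 without 9 h replicate 1, and of the 6 fits that left out a library it passed in those without 9 h replicate 2 or 24 h replicate 1. Dusp6, a phosphatase that ERK induces, rose (4395, 4376 and 4275 at 9 h and 5902, 5547 and 5718 at 24 h, log2 fold change 0.40 ± 0.04 (SE), adjusted p = 5.61e-06). The de novo DNA methyltransferase gene Dnmt3b did not pass (log2 fold change −0.09, adjusted p = 0.0415). In bulk RNA, fewer cells of a type and less RNA per cell cannot be told apart.

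The largest rises were in genes of varied roles. Ripply3, a corepressor that works with T-box factors in the embryo, was the most abundant, with normalized counts of 890.0, 761 and 763 at 9 h and 1856, 1959 and 2050.5 at 24 h (log2 fold change 1.28 ± 0.06 (SE), adjusted p = 2.00e-08). It had been at 129.6, 133 and 132 in Serum/LIF and 763, 733 and 808 at 3 h, so it rose early, was level between 3 h and 9 h, and rose again. Cdx1, a homeobox gene that Wnt signalling induces, had 142, 161 and 134 at 9 h and 421, 416 and 391 at 24 h (log2 fold change 1.49 ± 0.12 (SE), adjusted p = 1.21e-06). Col13a1, a transmembrane collagen, showed the largest rise of the named genes, with 59.9, 50.2 and 49.8 at 9 h and 209, 178 and 256 at 24 h (log2 fold change 2.00 ± 0.16 (SE), adjusted p = 1.20e-06). The 24 h libraries lay above every other library of the course in all 3 genes. Cerk, which phosphorylates ceramide, had 313, 283 and 307 at 9 h and 671, 609.6 and 676 at 24 h (log2 fold change 1.11 ± 0.07 (SE), adjusted p = 2.01e-07). Gas7, a gene first found in growth-arrested cells, had 213, 239.8 and 219.7 at 9 h and 495, 466 and 441 at 24 h (log2 fold change 1.06 ± 0.09 (SE), adjusted p = 2.45e-06). Sult5a1, a sulfotransferase, had 40.9, 39.8 and 42.5 at 9 h and 118, 131 and 121 at 24 h (log2 fold change 1.58 ± 0.13 (SE), adjusted p = 1.69e-06), with values within each time close to each other. Further rises, in log2 fold change ± SE, were Grid1, a glutamate receptor of the delta type (1.37 ± 0.15), St8sia6, a sialyltransferase (1.33 ± 0.12), and Itga1, an integrin that binds collagen (1.32 ± 0.21). The rest of the named rises were Klhdc7a (1.28 ± 0.21), Ebf4 (1.27 ± 0.16), Insyn1 (1.27 ± 0.14), aldehyde oxidase Aox1 (1.21 ± 0.15), Fam189a1 (1.19 ± 0.13) and Sept4, a septin (1.04 ± 0.10). Itga1 overlaps Pelo and Fam189a1 overlaps Nsmce3.

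**Figure D4:**
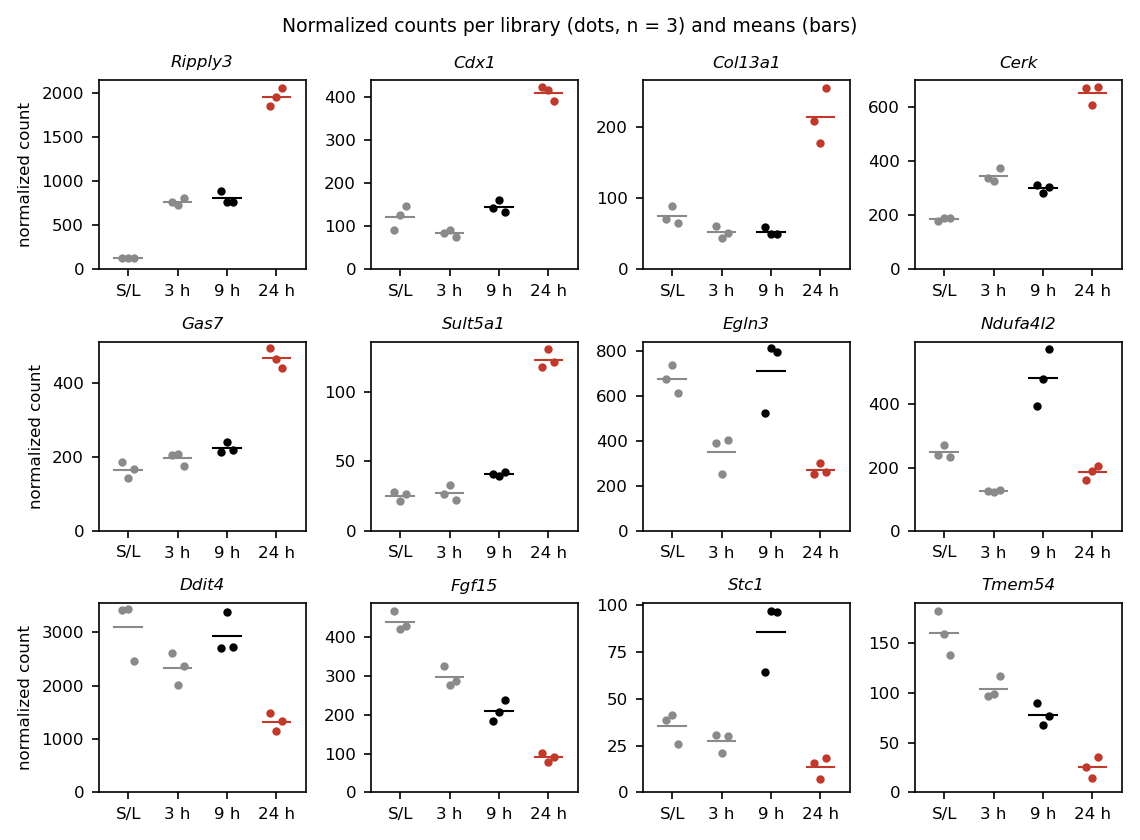
Normalized counts (vertical, from 0) of 12 genes in each library of the time course (dots, n = 3 per time, bars are means), in Serum/LIF (S/L) and after 3, 9 and 24 h of EMM, with 24 h in red. The first 6 genes are highest at 24 h, and the last 6 lie lower at 24 h than at 9 h.

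The other large falls had no role in common that the lists name. Tmprss13, a membrane serine protease, had normalized counts of 134, 115 and 123 at 9 h and 36.7, 33.5 and 25.7 at 24 h (log2 fold change −1.95 ± 0.14 (SE), adjusted p = 5.02e-07). Crabp1, which binds retinoic acid, had 145, 154 and 142 at 9 h and 54.1, 50.3 and 41.1 at 24 h (log2 fold change −1.59 ± 0.14 (SE), adjusted p = 2.50e-06). Neither gene's groups overlapped. Actn3, an actin-binding protein of muscle, had 399, 384 and 357 at 9 h and 189, 165 and 200.4 at 24 h (log2 fold change −1.04 ± 0.08 (SE), adjusted p = 7.26e-07). Vsir, an immune checkpoint ligand (−1.88 ± 0.24), Spon1, a secreted matrix protein (−1.84 ± 0.22), Grin1, a subunit of the NMDA receptor (−1.42 ± 0.19), Foxn4, a forkhead factor (−1.39 ± 0.13), Tgm3, a transglutaminase (−1.38 ± 0.13), and Upk2, a uroplakin (−1.31 ± 0.18), completed the 12 largest among called genes with a mean of at least 50 normalized counts at one time and no overlap. Less abundant called genes stand outside that ranking, such as Adm above, Gtf2a1l (−2.68), Flrt1 (−2.18) and Iqsec3 (−1.89), with means of 33.1, 15.7 and 16.7 at 9 h for the last 3. The largest fitted fall of all, −4.25, was that of Prok2, which had at most 1 count in any 24 h library, so its size depends on the prior count of the fit. Vsir overlaps Cdh23, and Tmem54, described next, overlaps Hpca.

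Markers of the extraembryonic lineages moved in both directions. Of 22 primitive endoderm markers 6 rose and 3 fell (median 0.27), and 3 rose without 24 h replicate 3. Their summed normalized count was 33636 to 36022 at 9 h and 34497 to 36551 at 24 h, which overlap. Cited1, a transcriptional coactivator, had 116, 116 and 127 at 9 h and 203, 208 and 228 at 24 h (log2 fold change 0.83 ± 0.10 (SE), adjusted p = 3.25e-05). Lrp2, the endocytic receptor megalin, had 596, 583 and 697 at 9 h and 968, 1099 and 1056 at 24 h (log2 fold change 0.74 ± 0.09 (SE), adjusted p = 3.70e-05). Sox7 rose (log2 fold change 0.49, adjusted p = 0.00116). The lineage's defining factors Gata6 (44.5, 58.8 and 46.6 at 9 h and 61.9, 52.4 and 50.4 at 24 h, log2 fold change 0.14, adjusted p = 0.664) and Gata4 (log2 fold change 0.30, adjusted p = 0.0324) did not pass. Nor did Pdgfra (log2 fold change 0.26, adjusted p = 0.371) or Hhex (log2 fold change 0.03, adjusted p = 0.828). Spink1, a secreted trypsin inhibitor, fell most of the 3 falls that passed (212, 177 and 224 at 9 h and 141, 139 and 128 at 24 h, log2 fold change −0.58 ± 0.10 (SE), adjusted p = 9.80e-04). Laminin genes Lama1 and Lamb1 fell too (−0.30 and −0.20) while the collagen genes Col4a1 and Col4a2 rose (0.33 and 0.46). Col4a1 had an adjusted p of 0.0092 and, of the 6 fits that left out a library, passed in the one without 24 h replicate 2. Among 17 trophectoderm markers 4 rose and 2 fell (median 0.10), with a summed normalized count of 20873 to 21673 at 9 h and 23799.5 to 24943 at 24 h. Gata3, a factor of that lineage, had 64.5, 74.9 and 70.5 at 9 h and 123, 111 and 112 at 24 h (log2 fold change 0.72 ± 0.12 (SE), adjusted p = 4.12e-04), and Tead4 rose (0.33). Cdx2, which defines the lineage, had 58.1, 46.4 and 53.9 at 9 h and 44.5, 29.3 and 27.8 at 24 h (log2 fold change −0.63, adjusted p = 0.0339). Tmem54, a membrane protein, fell from 89.9, 67.3 and 76.7 to 25.1, 14.7 and 36.0 (log2 fold change −1.62 ± 0.23 (SE), adjusted p = 1.57e-04). In the mesoderm and endoderm list 1 of 13 changed, T. Of 9 neuroectoderm markers Sox1 rose (0.65) and the tubulin gene Tubb3 fell (−0.55), and of 11 fibroblast markers Col1a1 fell (−0.37).

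Of the signalling lists, BMP genes gave rises alone, Nodal genes falls alone, and the others both. Bmp4, a ligand that supports the self-renewal of mESCs beside LIF, had normalized counts of 4080.5, 4026 and 3907 at 9 h and 6031, 5771 and 5645 at 24 h (log2 fold change 0.54 ± 0.04 (SE), adjusted p = 7.26e-07). With Smad6, Bmp7 and Id4 it made 4 rises (23.5%, against 7.0% of all genes) and 0 falls among 17 BMP genes. Only 1 rise was left without 9 h replicate 1, 24 h replicate 1 or 24 h replicate 3, and 2 without 9 h replicate 2 or 9 h replicate 3. In the Wnt list 4 of 23 rose, Cdx1, Wnt7b (0.46), Porcn (0.41) and the feedback gene Axin2 (0.32), and 2 fell, T and Lef1. ERK output gave 5 rises (21.7%) and 3 falls (13.0%) among 23. Etv4, an ETS factor downstream of FGF, rose (log2 fold change 0.51, adjusted p = 1.60e-06), Ier3 fell (log2 fold change −0.93, adjusted p = 8.88e-05), and Spry4 did not pass (log2 fold change −0.05, adjusted p = 0.417). Of 15 Nodal genes Lefty1, the feedback inhibitor of Nodal, fell (5356, 5696 and 5713 at 9 h and 3694, 3682 and 3821 at 24 h, log2 fold change −0.58 ± 0.04 (SE), adjusted p = 2.73e-07), with Lefty2 and Skil, 20% of the list, and 1 fell without 9 h replicate 2, 24 h replicate 2 or 24 h replicate 3. LIF and STAT3 genes gave 3 rises and 1 fall among 18, the fall being Stat3 (log2 fold change −0.25, adjusted p = 3.80e-04). Of 27 genes of the serum response and cytoskeleton 9 rose (33.3%) and 3 fell (11.1%), among them the actin gene Acta1 (log2 fold change 0.71, adjusted p = 7.69e-05) upwards and the myosin light chain gene Myl9 (log2 fold change −1.24, adjusted p = 1.86e-04) downwards.

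**Figure D5:**
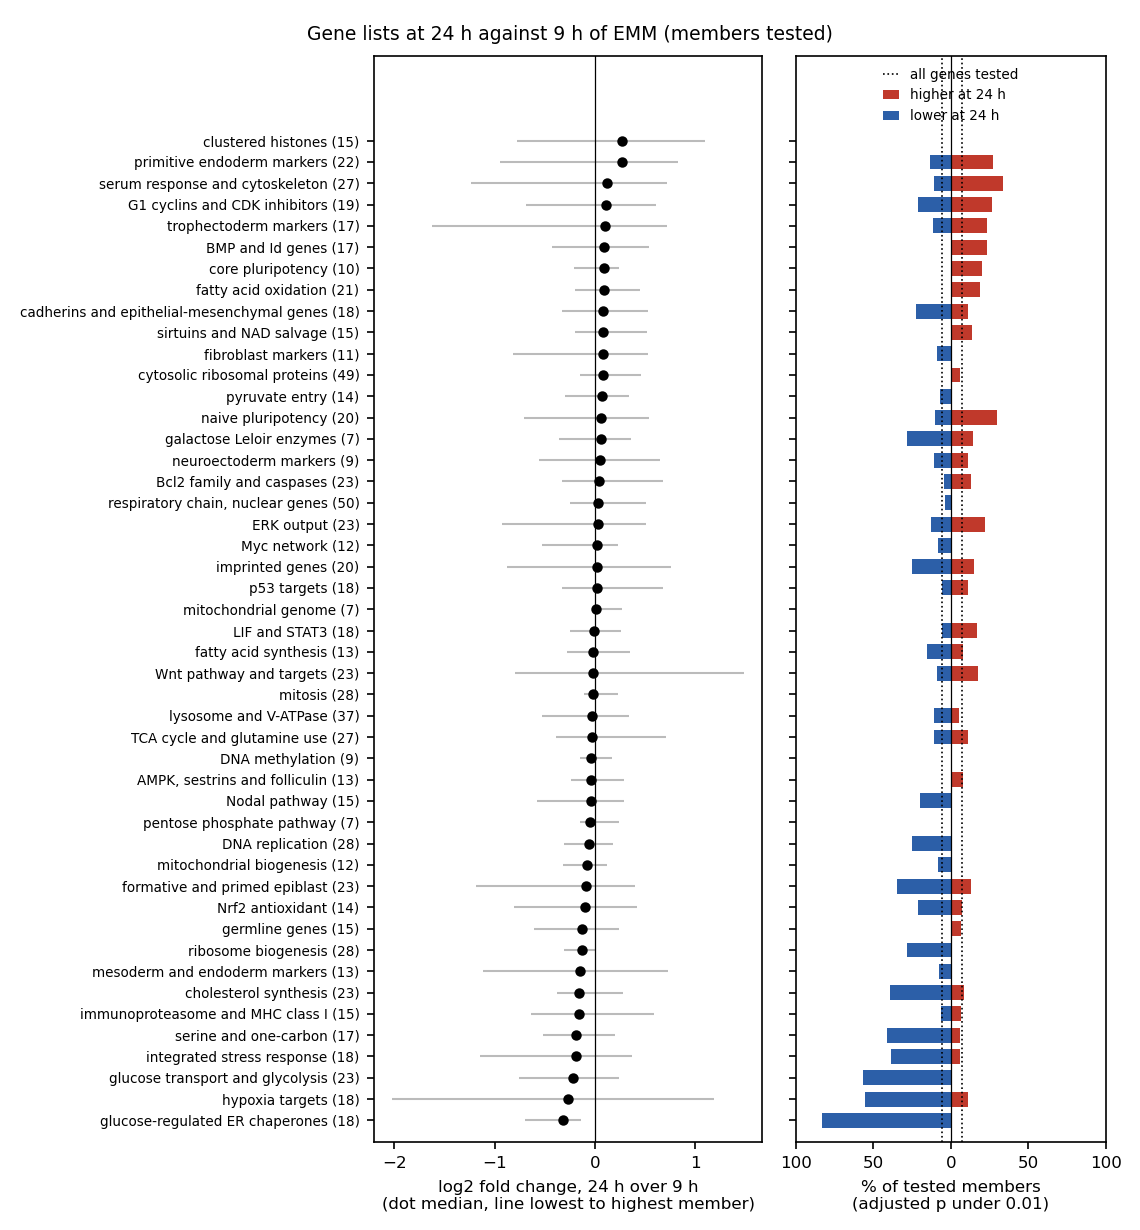
Left, median (dot) and range (line) of the log2 fold change of 24 h over 9 h over the tested members of each gene list, with their number in brackets. Right, percentage of tested members that rose (red, to the right) or fell (blue, to the left) at an adjusted p under 0.01, dotted lines marking the 7.0% and 6.02% of all genes, with ER chaperones, hypoxia targets and glycolysis showing the largest blue bars.

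The late step was smaller than the first step of the course, and the libraries of the 2 steps are separate. Between Serum/LIF and 3 h of EMM 273 genes rose (1.70% of those tested) and 405 fell (2.52%). Of the 92 genes called between 9 h and 24 h, 13 had also been called in that first step, which is 14.1% of the late and 1.92% of the early genes. Ripply3, the haematopoietic factor Spi1 and the predicted gene Gm47135 rose in both, and Flrt1, Ppp1r3g and Fut1 fell in both. The other 7, Gtf2a1l, Iqsec3, Pax5, Dll4, Kcnh1, Myl9 and Tmem150c, rose first and fell late. By the DESeq2 Wald test 5 genes were called in both steps, 2 of them in opposite directions. Myl9, the most abundant of the 7 genes that rose first and fell late, had a mean of 112 in Serum/LIF, 229 at 3 h, 166 at 9 h and 70.2 at 24 h.

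The genes called at 24 h were looked up in mESCs kept for 10 or 20 passages in EMM or SL (P10 and P20, 3 libraries each, 16054 genes tested). At P10 the 32 late-rising genes tested there gave 16 higher in EMM than in SL (50%) and 1 lower, against 18.7% of all genes in each direction by the adjusted p. Of 55 late-falling genes 27 were lower (49.1%) and 1 was higher. The median log2 fold change at P10 was 1.44 for the first group and −1.65 for the second, and 0.01 for all genes. At P20 the same genes gave 9 higher and 3 lower among the 32, and 15 lower and 9 higher among the 55, where 13.6% of all genes were higher and 12.5% lower. The median log2 fold change at P20 was 0.36 for the late-rising and −0.02 for the late-falling genes, the second close to the −0.0004 of all genes. Without any single one of the P20 SL and EMM libraries the late-falling genes gave 5 to 6 higher and 11 to 13 lower.

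Ripply3 was among those that kept their direction at both passages, with mean normalized counts ± SD of 15.5 ± 6.66 in SL and 688 ± 58.7 in EMM at P10, n = 3 each (log2 fold change 5.48, adjusted p = 4.00e-11). At P20 it had 20.7 ± 6.28 in SL and 168 ± 12.6 in EMM (log2 fold change 2.97, adjusted p = 1.57e-07). Cerk had 81.1 ± 14.8 in SL and 290.2 ± 30.3 in EMM at P10 (log2 fold change 1.84, adjusted p = 3.83e-07). Actn3 had 465 ± 14.6 in SL and 54.4 ± 4.0 in EMM (log2 fold change −3.11, adjusted p = 1.52e-11). Crabp1 was lower in EMM at both passages as well, by −2.78 at P10 and −2.71 at P20 in log2 fold change. Ddit4 was lower in EMM at P10 (2359 ± 386 in SL and 742 ± 29.8 in EMM, log2 fold change −1.67, adjusted p = 5.87e-08) and did not pass at P20 (log2 fold change −0.18, adjusted p = 0.343). Fgf15 likewise was lower at P10 (log2 fold change −2.16, adjusted p = 1.15e-06) and level at P20 (log2 fold change −0.02, adjusted p = 0.948). Some genes went the other way. Sept4, higher at 24 h, was lower in EMM at P10 (log2 fold change −3.36, adjusted p = 1.32e-07), and Cdx1 was lower in EMM at P20 (log2 fold change −3.45, adjusted p = 5.66e-08). Grin1, lower at 24 h, was higher in EMM at both passages (log2 fold change 1.89, adjusted p = 6.55e-09 at P10). Egln3, lower at 24 h, did not differ past the threshold at P10 (log2 fold change −0.21, adjusted p = 0.444) and was higher in EMM at P20 (log2 fold change 1.00, adjusted p = 6.36e-04).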

How the data were processed

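The time-course table deposited by the authors holds unnormalized whole-number counts per gene. The study's methods name STAR and HTSeq with separate counts in introns and exons, the submitters' processing notes name STAR, featureCounts and the build mm10, and neither states which class of reads the table holds or whether strand was used. The passage table deposited by the authors holds estimated counts (expected counts) without scaling, for which the processing notes name Salmon. Of these values 9.98% were not whole, and all were rounded.

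Genes were filtered with filterByExpr by group, scaled with TMM and fitted with the quasi-likelihood test of edgeR 4.0.16 (R 4.3.3), all 12 time-course or 18 passage libraries in one model. P-values were adjusted after Benjamini and Hochberg over the 16049 or 16054 genes tested. A gene was called at an adjusted p under 0.01 and a log2 fold change over 1 in size, and list members were counted by the adjusted p alone. To give normalized counts, each count was divided by the library's TMM-scaled size and multiplied by the mean of those sizes. Gene models were GENCODE M21 (GRCm38). The SE is the fitted log2 fold change over the square root of its F. A count of 3 per library was taken as the floor.

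The rule for named genes took the 12 largest rises and falls with a mean of at least 50 normalized counts at one time, non-overlapping libraries and no predicted gene, the largest rise and fall in each list, the genes the paper names, and the 5 most abundant calls in each direction. List members, promoters and passage genes named beyond it were chosen after their values were seen. The samples compared and the lists were chosen with earlier results of these data known. Replicates with the same number at 9 h and 24 h were not paired in the main fit. Their deviations correlated at 0.55, −0.44 and 0.58 over 9613 genes, but the sign of every such correlation followed the library split. Whether same-numbered replicates belong together cannot be told from these values. The method was tested on simulated counts of 15814 genes for 24 h against 9 h, and recovered 65 of 67 genes changed by 1.5 on the log2 scale, 67 of 67 by 2 and 66 of 66 by 3, with 0 false calls. For EMM against SL at P10 it recovered 64 of 67, 61 of 67 and 66 of 66, with 0 false calls. The simulated counts held no library split and no change smaller than 1.5, so they say nothing of errors from either. Alternatives were other scalings and filters, DESeq2 1.42.0, fewer libraries, a replicate block, each library left out, and, chosen after seeing the data, the library split or the short-transcript share as a term.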

Additional observations from a re-analysis of the deposited data

How the results depend on the processing

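The 33 rises became 55 with no filter on low counts and 57 at an adjusted p under 0.05, and the 59 falls became 37 with a minimum of 10 counts in each library, 38 with the DESeq2 Wald test and 93 at an adjusted p under 0.05. By the adjusted p alone, rises became 1969 at a threshold of 0.05, and falls 1841 at that threshold and 594 when the 6 libraries of 9 h and 24 h were fitted alone. With each library left out, rises ranged from 31 to 39, falls from 46 to 69, and falls by the adjusted p alone from 594 to 977. With the library split as a term there were 42 rises and 64 falls, and with the short-transcript share as a covariate 31 and 60.

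Whether the replicate numbers pair the libraries could not be told. Correlations between 9 h and 24 h libraries were positive within a side of the library split (0.55 to 0.63). Across the sides they were negative (−0.77 to −0.35). With the replicate block the 6 libraries gave 30 rises and 44 falls (909 and 657 by the adjusted p alone) and the 12 libraries 31 and 59 (1167 and 1014). At P10 the block left 16 of the late rises higher and 27 of the late falls lower in EMM, and at P20 9 and 14.

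By the DESeq2 Wald test, 5 genes were called in both the first and the last step, 2 of them in opposite directions. List medians moved beyond the spread of the replicates as follows. With the short-transcript share as a covariate they were −0.016 for the respiratory chain, 0.14 for the mitochondrial genome, −0.26 for ER chaperones, 0.042 for ribosomal proteins, −0.47 for clustered histones, 0.10 for naive pluripotency, 0.059 for BMP genes and 0.20 for primitive endoderm markers. With the split as a term they were −0.27 for ER chaperones, −0.077 for DNA replication and 0.085 for naive pluripotency, which had 0.076 with library totals alone. With each library left out they ranged from 0.069 to 0.10 for fatty acid oxidation, −0.22 to −0.15 for the integrated stress response, −0.34 to −0.28 for ER chaperones, −0.15 to −0.11 for ribosome biogenesis, −0.091 to −0.057 for DNA replication, 0.051 to 0.088 for naive pluripotency, 0.21 to 0.27 for primitive endoderm and 0.049 to 0.19 for trophectoderm markers. The cause was not tested in any of these cases.

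A few genes near 0 changed sign, none of them called: Spry4 (0.0015 with the covariate), Nes (0.10 with the split as a term, 0.16 with the covariate, and −0.15 to 0.13 with each library left out) and Sall4 (0.019, 0.041 and −0.079 to 0.013). With each library left out Klf4 ranged from −0.0053 to 0.091, Hhex from −0.028 to 0.067 and Myc from −0.0034 to 0.069 in log2 fold change. Of the 59 falls, 2 had at most 3 counts in every library at 24 h.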

Other observations

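Lists outside the programmes described above are given here for 24 h against 9 h of EMM. By the adjusted p 7.0% of all genes rose and 6.02% fell. Of 20 imprinted genes 3 rose (15%) and 5 fell (25%), and 3 fell without 9 h replicate 1 or 24 h replicate 3. Plagl1, an imprinted zinc-finger factor, had normalized counts of 419, 396 and 391 at 9 h and 627, 704 and 709 at 24 h (log2 fold change 0.76 ± 0.07 (SE), adjusted p = 3.47e-06), and Dlk1, a membrane protein of the Notch ligand family, had 179, 160.2 and 152 at 9 h and 103, 71.2 and 91.5 at 24 h (log2 fold change −0.88 ± 0.13 (SE), adjusted p = 1.80e-04). In both genes the times did not overlap. Among 15 genes of antigen presentation, B2m, the light chain of MHC class I, had 1301, 1285 and 1246 at 9 h and 1894, 2099 and 1781 at 24 h (log2 fold change 0.59 ± 0.06 (SE), adjusted p = 4.74e-06), while Psmb10, a subunit of the immunoproteasome, had 612, 573 and 708 at 9 h and 306, 466 and 443 at 24 h (log2 fold change −0.64 ± 0.12 (SE), adjusted p = 0.00103). They were the only calls of that list, 1 rise and 1 fall, 6.67% each way and near the shares of all genes. Of 15 genes of sirtuins and NAD salvage 2 rose (13.3%), the deacetylase gene Sirt1 (log2 fold change 0.27, adjusted p = 1.20e-04) and Nmnat2 (log2 fold change 0.30, adjusted p = 9.65e-04).

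Of 18 cadherin and epithelial-mesenchymal genes 2 rose (11.1%) and 4 fell (22.2%). The repressor gene Zeb1 rose (log2 fold change 0.53, adjusted p = 1.85e-04), as did Vim (0.28), and Cdh3, Epcam, Esrp1 and Cdh1 fell (−0.33, −0.27, −0.27 and −0.19). In the Bcl2 and caspase list the survival gene Bcl2 rose (log2 fold change 0.53, adjusted p = 0.00137) and Bax, which permeabilizes mitochondria, fell (log2 fold change −0.33, adjusted p = 0.00121), among 3 rises (13.0%) and 1 fall (4.35%) in 23. The antioxidant list gave 1 rise (7.14%) and 3 falls (21.4%) in 14, Nqo1 rising (log2 fold change 0.36, adjusted p = 1.64e-04) and the glutathione peroxidase gene Gpx2 falling (log2 fold change −0.81, adjusted p = 3.81e-05). Of 37 lysosomal genes 2 rose (5.41%) and 4 fell (10.8%), near the 7.0% and 6.02% of all genes, with Atp6v1f (log2 fold change 0.34) and the acid glucosidase gene Gaa (log2 fold change −0.53) changing most. With the library split as a term 4 rose and 8 fell, when 1672 and 1439 genes did in all. The 9 tested genes of DNA methylation gave 0 calls. Of 30 genes the paper names, which are not independent of these samples, 8 rose (26.7%) and 2 fell (6.67%). Among those that did not pass were Eomes (log2 fold change 0.14, adjusted p = 0.377), Krt8 (log2 fold change 0.07, adjusted p = 0.467), Nes (log2 fold change −0.02, adjusted p = 0.947), Zfp521 (log2 fold change 0.46, adjusted p = 0.0468), Dusp4 (log2 fold change 0.19, adjusted p = 0.0375), Nr0b1 (log2 fold change −0.09, adjusted p = 0.167) and Sall4 (log2 fold change −0.02, adjusted p = 0.768).

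The remaining lists gave at most 3 calls each, where 7.0% of all genes rose and 6.02% fell, and values in brackets are log2 fold changes. Of 14 genes of pyruvate entry Pdk3 fell (−0.30), and of 12 of mitochondrial biogenesis Pprc1 fell (−0.15). In fatty acid synthesis the elongase gene Elovl6 rose (0.26) and 2 of 13 fell, Srebf1 most (−0.28). Of 18 p53 targets 2 rose, Pmaip1 most (0.31), and Bax fell. Sesn3 was the 1 rise among 13 genes of AMPK, sestrins and folliculin (0.29), and Dppa4 (0.24) rose with Nanog among 10 core pluripotency genes. Of 15 germline genes Ddx4 rose (log2 fold change 0.24, adjusted p = 0.0063), a call lost in each of the 6 fits that left out a library. Rpl23 rose most of the 3 cytosolic ribosomal proteins that passed (0.25). The falls of Pdk3 and Pprc1 were each lost without 9 h replicate 2 or 24 h replicate 3, that of Pprc1 also without 9 h replicate 1 or 24 h replicate 2.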
